A study of Mus musculus with 8 samples.

Results

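The 7 genes described here encode channels that carry or shape the inward currents of the heart muscle cell: Scn4b (an auxiliary subunit of voltage-gated sodium channels), Cacna1c and Cacnb2 (the pore and a beta subunit of L-type calcium channels), Cacna1g and Cacna1h (pores of T-type calcium channels) and Hcn2 and Hcn4 (pores of the pacemaker, or HCN, channels). They were taken by symbol from a table of read counts with 48440 entries, in which all 7 were found, and 6 of them were among the 13771 genes with enough reads to test. Scn4b was not.

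The libraries were made from cardiomyocytes that were purified from newborn mice of strain C57BL6/J at postnatal day 2. Each of 4 litters contributed a male heart and a female heart, so that 4 male and 4 female libraries could be compared by sex and, as pairs, by litter. All pups shared strain and age, and the labels give no transgene, treatment or disease group. Each value comes from 1 heart, a litter is represented by 2 hearts, and the cells of a whole heart were pooled, so atrial, ventricular and nodal cells were not separated. The labels give no isolation or sequencing date, so litter and anything handled litter by litter cannot be told apart.

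In a cardiomyocyte, the sodium channel starts the upstroke of the action potential, and L-type calcium channels then admit the calcium that triggers release from the sarcoplasmic reticulum and sustains the plateau. T-type calcium channels open at more negative voltages and are known from the embryonic heart and, in the adult, from pacemaker tissue. HCN channels open on hyperpolarisation, pass a depolarising current that cyclic nucleotides speed up, and are best known from the sinoatrial node, where Hcn4 is the leading gene. Beta subunits such as Cacnb2 carry the L-type pore to the membrane and tune its gating.

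Hcn2 and Hcn4 are close relatives, and the stretch below, from the longest GENCODE M21 transcript of each gene, codes for the part of the pore that holds the selectivity filter. It is shown because the counts of the 2 genes are compared later and could be mixed where their sequences are shared. Capitals mark the bases that differ between the 2 genes.
Hcn2: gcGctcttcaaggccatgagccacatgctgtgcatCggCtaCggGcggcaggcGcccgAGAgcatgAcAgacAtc
Hcn4: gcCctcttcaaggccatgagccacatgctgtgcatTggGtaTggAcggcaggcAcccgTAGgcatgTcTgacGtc
The stretch spans bases 1203 to 1277 of 3195 in Hcn2 and 1502 to 1576 of 6118 in Hcn4. Of its 75 bases, 12 differ (84.0% identical), and 4 of its 25 codons change the residue. The longest run common to the 2 whole transcripts was 32 bases and lies in this stretch, so the 2 transcripts have no 100-base window, the length of a read, in common. The longest run common to Cacna1g and Cacna1h was 41 bases.

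The promoters of the HCN genes are shown because Hcn2 differed most between litters among the tested channel genes described here and Hcn4 is its nearest relative among them. They run from 250 bases before to 50 after the RefSeq start on GRCm38.p6 (the mm10 build), at chr10:79716384-79716683 for Hcn2 and chr9:58822699-58822998 for Hcn4, both on the plus strand. Capitals mark matches, on either strand, to the GC box GGGCGG and the E-box CANNTG.
Hcn2: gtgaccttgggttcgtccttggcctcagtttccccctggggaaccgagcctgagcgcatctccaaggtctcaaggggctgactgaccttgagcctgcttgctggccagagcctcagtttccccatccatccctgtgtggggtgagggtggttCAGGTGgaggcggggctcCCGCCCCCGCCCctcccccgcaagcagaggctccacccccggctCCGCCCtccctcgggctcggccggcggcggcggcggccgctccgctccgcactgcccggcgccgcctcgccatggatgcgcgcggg
Hcn4: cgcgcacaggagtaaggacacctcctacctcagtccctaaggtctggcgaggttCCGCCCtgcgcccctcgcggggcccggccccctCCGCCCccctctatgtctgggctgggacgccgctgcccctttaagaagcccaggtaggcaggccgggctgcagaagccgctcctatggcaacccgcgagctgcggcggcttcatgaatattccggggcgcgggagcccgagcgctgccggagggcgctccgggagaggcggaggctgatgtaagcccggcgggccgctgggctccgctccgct
The Hcn2 promoter had 3 GC boxes and 1 E-box, and the Hcn4 promoter had 2 GC boxes and no E-box. A GC box was found in 35.7% and an E-box in 72.3% of 32851 RefSeq promoters of the same length. The share of G and C was 72.3% for Hcn2 and 71.7% for Hcn4, against a median of 52.7%. Neither promoter matched AGATAA (the GATA motif, in 11.2% of promoters), TATAAA (the TATA box, 13.6%), CCAAT (37.4%) or the MEF2 motif (3.69%), which says only that these letters are not in this window. Promoters were found for 5 of the 7 genes.

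Levels are given as CPM, the count of a gene relative to its library's total after TMM scaling (a factor per library that corrects for composition), or as CPM per kilobase of the longest annotated transcript where genes are compared with each other. Library totals ran from 14226342 counts (female of litter 3) to 24910243 (male of litter 1), and mitochondrial genes took 13.4% to 18.5% of counts. The 8 cardiomyocyte markers summed to between 54604 and 68195 CPM, and the fibroblast, endothelial, macrophage and erythroid lists summed to far less. Of 15 conduction and pacemaker regulator genes listed, 12 had enough reads to test, among them Tbx18 (177 to 493 counts per library) and Tbx3 (66 to 144), and 3 did not, among them Isl1 (1 to 3 counts) and Shox2 (0 to 9).

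Per kilobase, Cacna1c had the highest mean level of the 7 genes, at 77.5, followed by Cacnb2 at 22.4, Cacna1g at 21.0, Cacna1h at 10.1, Hcn2 at 3.14, Hcn4 at 1.05 and Scn4b at 0.0693. Each gene was above the next in 8 of 8 libraries, except Cacnb2 and Cacna1g, whose order held in 4 of 8 and which did not differ beyond their spread. With all annotated exons as the length, the levels of Cacna1c (48.1), Cacna1g (17.4), Cacnb2 (8.52) and Cacna1h (8.52) placed Cacna1g above Cacnb2. By either length, the L-type pore gene had the highest level and both T-type pore genes stood above both HCN genes.

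**Figure D1:**
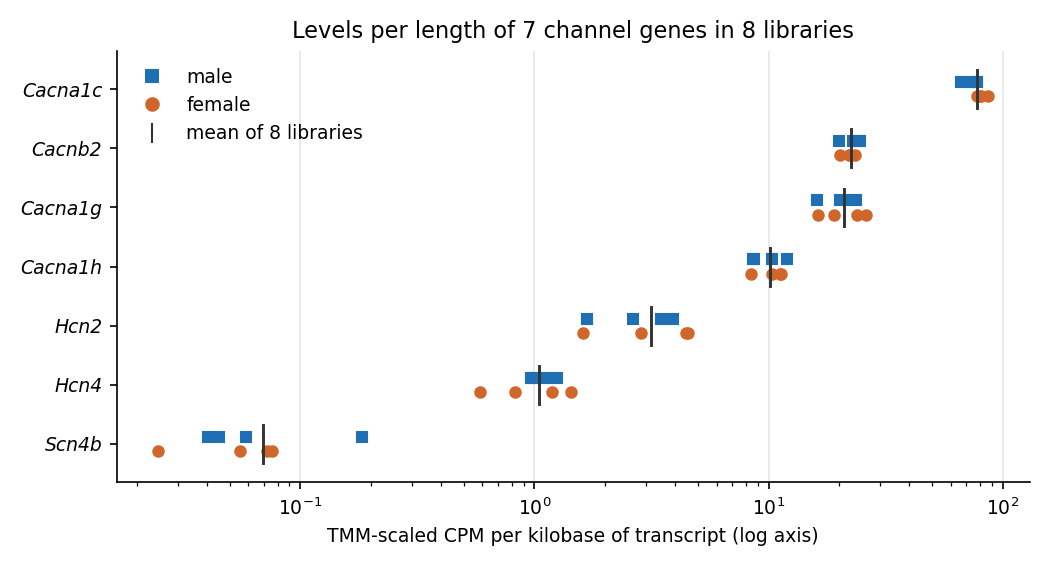
Level of the 7 genes in TMM-scaled CPM per kilobase of the longest transcript (log axis) in each of 8 libraries, with males as squares, females as circles and a line at the mean of the 8. Cacna1c leads at a mean of 77.5, Cacnb2 and Cacna1g overlap around 22.4 and 21.0, Hcn2 and Hcn4 lie at 3.14 and 1.05, and Scn4b lies lowest at 0.0693.

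Scn4b (chr9:45138395-45154152, plus strand), whose protein is known to shape the opening and resurgent current of sodium channels, was close to the limit of detection. It had 5, 7, 21 and 4 counts in the males of litters 1 to 4 and 3, 8, 4 and 9 counts in the females. The male of litter 3 stood above the other 7 libraries, with 0.911 CPM against 0.123 to 0.378, and its female littermate (0.275 CPM) lay within the others' range. The 95% Poisson interval of those 21 counts ran from 13.0 to 32.1 counts and covers counting error only. In a fit without a filter on low counts, the log2 difference of males over females was 0.51 (SE 0.56, edgeR adjusted p = 0.953) and the litter test gave an edgeR adjusted p of 0.219. The sexes overlapped, and no difference in Scn4b was detectable at this depth.

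Of the 13 other sodium channel subunit genes listed, 5 had enough reads to test and 2 of these differed between litters, near the 32.1% of all tested genes that did. Scn7a, which codes for a sodium-sensing relative of the channels, was higher in litter 3 by 1.38 (log2, SE 0.18, edgeR adjusted p = 0.000245). Scn4a, the pore of skeletal muscle, was lower there (log2 -0.50, SE 0.17, edgeR adjusted p = 0.0456). In RNA from many cells, here and in the litter differences that follow, fewer cells of a type and less RNA per cell cannot be told apart. Of 8 partners of the sodium channel, 3 differed between litters, also near the 32.1% of all tested genes. Among them, Gpd1l, known for its effect on sodium channel trafficking, was higher in litter 3 by 0.31 (log2, edgeR adjusted p = 0.00782).

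Cacna1c (chr6:118587240-119196418, minus strand) had the smallest difference between litter means of the 6 tested genes. It had 1024, 1020, 960 and 878 CPM in the males of litters 1 to 4 and 1048, 1025, 1065 and 1142 CPM in the females. The male was below the female in 4 of 4 litters, and the sexes did not overlap, although the highest male (litter 1) and the lowest female (litter 2) lay within 1 CPM of each other. Males averaged 970 ± 68.4 CPM and females 1070 ± 50.9 CPM (SD, n = 4), a log2 difference of -0.14 (SE 0.08, edgeR adjusted p = 1.00). With litter as a replicate block, the edgeR adjusted p was 0.417. Groups that do not overlap by sex were found for 2.07% of all tested genes and for 1 of the 6, and the difference did not pass the test. By litter, the means were between 1010 and 1036 CPM, a log2 range of 0.05 (edgeR adjusted p = 0.965). Litter 4 holds both the lowest and the highest library, and the range was 0.15 without its male and 0.21 without its female (edgeR adjusted p = 0.475 and 0.216).

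Cacnb2 (chr2:14603088-14987908, plus strand) varied about as little over the 8 libraries as the pore gene, with a coefficient of variation of 7.16% against 7.57%. It had 115, 120, 124 and 101 CPM in the males of litters 1 to 4 and 111, 118, 112 and 102 CPM in the females. Both libraries of litter 4 were the lowest, and the sexes overlapped. The log2 range between litters was 0.23 (edgeR adjusted p = 0.0822), and litter 4 against the other 3 gave -0.20 (log2, SE 0.06, edgeR adjusted p = 0.0551). That difference of litter 4 passed the threshold in 5 of 15 alternatives, with edgeR adjusted p from 0.0135 to 0.308. Its exons overlap 3 gene models on the opposite strand (Gm10848, Gm10849 and Gm13269), whose reads can be told apart only if counting used the strand.

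The number of Cacnb2 counts for each Cacna1c count, which needs no scaling between libraries, was 0.112, 0.117, 0.129 and 0.115 in the males of litters 1 to 4 and 0.106, 0.115, 0.105 and 0.0892 in the females. The male was higher in every litter, and the sexes overlapped. The log2 ratio was 0.20 higher in males (exact permutation test, two-sided, p = 0.0571, adjusted over 3 ratios p = 0.171). The smallest p that 4 against 4 libraries allow is 0.0286.

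Among the other calcium channel genes, 2 of 3 tested pores differed between litters, beside 32.1% of all tested genes. Cacna1a, the P/Q-type pore known from neurons, was higher in litter 1 by 0.66 (log2, SE 0.09, edgeR adjusted p = 0.000565) and lower by a like amount in litters 3 and 4 (log2 -0.48 in each, edgeR adjusted p = 0.00380 and 0.0110). Cacna1d, the L-type pore of pacemaker cells, had 17.9 to 30.6 CPM and was lower in litter 1 (log2 -0.50, edgeR adjusted p = 0.00136) and higher in litter 4 by 0.46 (log2, edgeR adjusted p = 0.00408). Of 6 tested auxiliary subunits, Cacng6, a gamma subunit, was lower in litter 3 (log2 -0.78, SE 0.10, edgeR adjusted p = 0.000137), and Cacna2d1, the main cardiac alpha-2-delta subunit, was higher by 0.28 (log2, SE 0.06, edgeR adjusted p = 0.00641). These were the 2 of 6 that differed between litters, a share near the background, and in litter 4 each lay on the other side, with log2 values of 0.60 for Cacng6 and -0.35 for Cacna2d1 (edgeR adjusted p = 0.00297 and 0.00851).

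Of 8 tested regulators of calcium channels, 6 differed between litters, beside 32.1% of all tested genes. In litter 3, Gem, a small GTPase that holds back L-type current, was higher by 1.98 (log2, SE 0.21, edgeR adjusted p = 4.67e-05). Its mean over the 8 libraries was only 2.87 CPM. Rrad, on the same list, had a mean of 156 CPM and was not called in litter 3 (log2 0.17, edgeR adjusted p = 0.377). In litter 4, Rrad was higher by 0.48 (log2, edgeR adjusted p = 0.0417). The calmodulin gene Calm3 (-0.43) and the subunit-binding scaffold gene Ahnak (-0.33) were lower in litter 3 on the log2 scale, each with an edgeR adjusted p of at most 0.00161. Calmodulin gives the L-type channel its calcium-dependent inactivation.

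The T-type pore genes differed between litters, in opposite directions in litter 3. Cacna1g (chr11:94408391-94474198, minus strand) had 198, 190, 135 and 169 CPM in the males of litters 1 to 4 and 160, 201, 137 and 219 CPM in the females. Both libraries of litter 3 lay below the other 6, and the sexes overlapped. The log2 range between litters was 0.52 (edgeR adjusted p = 0.0174), and litter 3 was at 0.719 of the mean of the others (log2 -0.48, SE 0.10, edgeR adjusted p = 0.00454).

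The litter test of Cacna1g did not pass in 4 of 17 alternatives, although the log2 range stayed between 0.51 and 0.53 in the first 3 of them. These were DESeq2's likelihood ratio test (adjusted p = 0.129) and the fits without the male of litter 3 (edgeR adjusted p = 0.0815), without the female of litter 3 (edgeR adjusted p = 0.103), and without both (range 0.12, edgeR adjusted p = 0.685). The lower level in litter 3 passed in 14 of 14 alternatives, with log2 values from -0.55 to -0.39 and an edgeR adjusted p of at most 0.0496.

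Cacna1h (chr17:25374285-25433783, minus strand) had 70.6, 85.3, 98.6 and 71.7 CPM in the males of litters 1 to 4 and 69.0, 85.0, 92.3 and 92.9 CPM in the females. Both libraries of litter 1 were the lowest and the male of litter 3 the highest. The male of litter 4 lay close to litter 1 and its female littermate close to litter 3, and the sexes overlapped. The log2 range between litters was 0.45 (edgeR adjusted p = 0.0289). Litter 1 was lower (log2 -0.33, SE 0.09, edgeR adjusted p = 0.0270) and litter 3 higher by 0.28 (log2, SE 0.08, edgeR adjusted p = 0.0254).

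Several calls of Cacna1h ended when libraries were left out. The litter test did not pass without the male of litter 1 (range 0.52, edgeR adjusted p = 0.0822), the female of litter 1 (0.39, edgeR adjusted p = 0.164), the male of litter 3 (0.35, edgeR adjusted p = 0.109) or both libraries of litter 3 (0.28, edgeR adjusted p = 0.133). The same 4 omissions gave -0.39, -0.26, -0.29 and -0.26 in litter 1 (edgeR adjusted p = 0.145, 0.340, 0.0506 and 0.100). In litter 3 the value was 0.26 without the female of litter 1 (edgeR adjusted p = 0.0577) and 0.17 without the male of litter 3 (edgeR adjusted p = 0.335). Of the 8131 windows of 100 bases in its longest transcript, 0.726% also occur in Tpsg1, a neighbour on the opposite strand. The longest transcripts of the other 6 genes share no such window with any other gene, and their shorter transcripts were not compared.

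There were 2.80, 2.22, 1.37 and 2.36 counts of Cacna1g for each count of Cacna1h in the males of litters 1 to 4 and 2.32, 2.37, 1.48 and 2.35 in the females. Both libraries of litter 3 lay below the other 6, which ran from 2.22 to 2.80. By sex the log2 difference was 0.02 (exact permutation test, two-sided, p = 0.943, adjusted over 3 ratios p = 0.943). The difference of this ratio between litters was not tested.

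**Figure D2:**
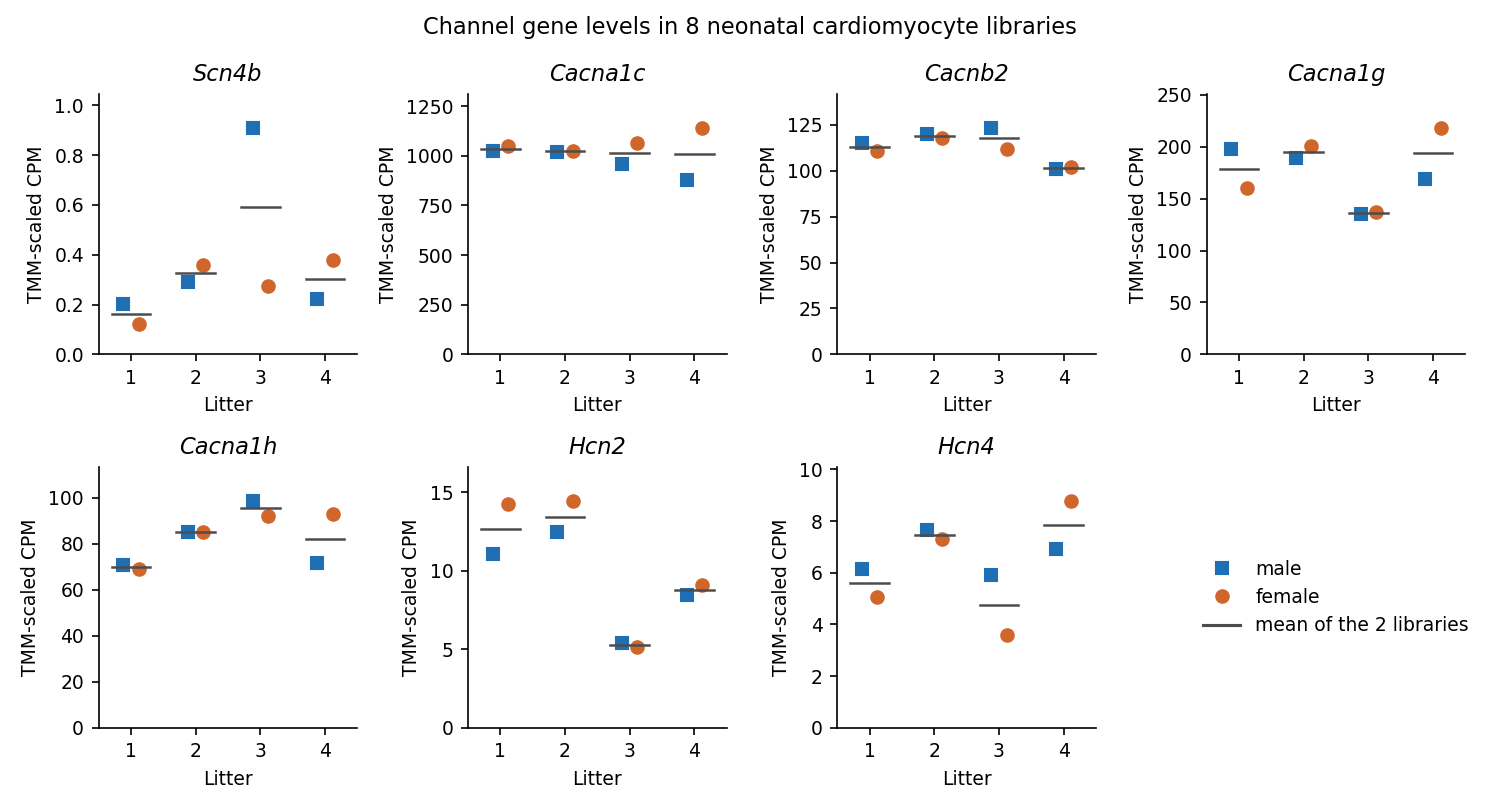
TMM-scaled CPM of the 7 genes in each library by litter, with males as squares, females as circles and a line at the mean of the 2 libraries of a litter; each axis starts at 0. Hcn2 and Cacna1g were lowest in litter 3 (means 5.27 and 136 CPM), and Cacna1c stayed between 878 and 1142 CPM.

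Hcn2 (chr10:79716634-79736108, plus strand) differed most between litters among the 6 tested genes. It had 11.1, 12.4, 5.38 and 8.43 CPM in the males of litters 1 to 4 and 14.2, 14.4, 5.16 and 9.11 CPM in the females. Both libraries of litter 3 were below both of litter 4, which were below all 4 of litters 1 and 2, and the last 2 litters overlapped. The sexes overlapped as well, with the male below the female in 3 of 4 litters.

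The log2 range of Hcn2 between litters was 1.33 (edgeR adjusted p = 0.000237). Litter 3 was at 0.468 of the mean of the others (log2 -1.09, SE 0.13, edgeR adjusted p = 0.000102), litter 1 was higher by 0.56 (SE 0.11, edgeR adjusted p = 0.00608) and litter 2 by 0.68 (SE 0.11, edgeR adjusted p = 0.00377). The 4 litter comparisons share libraries, and a low litter 3 raises the others in them. Without both libraries of litter 3, the differences of litter 1 (0.22, edgeR adjusted p = 0.248) and litter 2 (0.35, edgeR adjusted p = 0.124) did not pass. Leaving out the female of litter 1 ended the call in litter 1 (0.43, edgeR adjusted p = 0.216). Leaving out the male or the female of litter 2 ended that in litter 2, at values of 0.70 and 0.66 (edgeR adjusted p = 0.0504 and 0.0824). The litter test itself passed in 17 of 17 alternatives (adjusted p up to 0.0153, at a log2 range of 0.61 without litter 3), and the lower level in litter 3 in 14 of 14 (log2 -1.26 to -0.96).

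Hcn4 (chr9:58823412-58863175, plus strand) had 6.14, 7.65, 5.90 and 6.93 CPM in the males of litters 1 to 4 and 5.06, 7.29, 3.58 and 8.77 CPM in the females. The female of litter 3, with 52 counts, was the lowest and the female of litter 4 the highest. The sexes overlapped, as did litters 1 and 3 and litters 2 and 4. The log2 range between litters was 0.72 (edgeR adjusted p = 0.0570), and litter 3 gave -0.52 (log2, SE 0.19, edgeR adjusted p = 0.0559). Without the male of litter 3 this value was -0.95 (edgeR adjusted p = 0.0244), and without the female it was -0.23 (edgeR adjusted p = 0.525). The litter test passed in 4 of 17 alternatives, with adjusted p from 0.000768 to 0.149. Counting alone gives Hcn4 a coefficient of variation of 8.37%, against 25.2% measured over the 8 libraries, and gives Hcn2 6.65% against 36.3%.

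The count of Hcn4 for each count of Hcn2 was 0.554, 0.615, 1.10 and 0.821 in the males of litters 1 to 4 and 0.355, 0.505, 0.693 and 0.963 in the females. The male was higher in litters 1 to 3 and lower in litter 4, and the sexes overlapped. The log2 difference by sex was 0.34 (exact permutation test, two-sided, p = 0.429, adjusted over 3 ratios p = 0.643). The female of litter 1 had the lowest ratio and the male of litter 3 the highest, and the difference between litters was not tested.

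**Figure D3:**
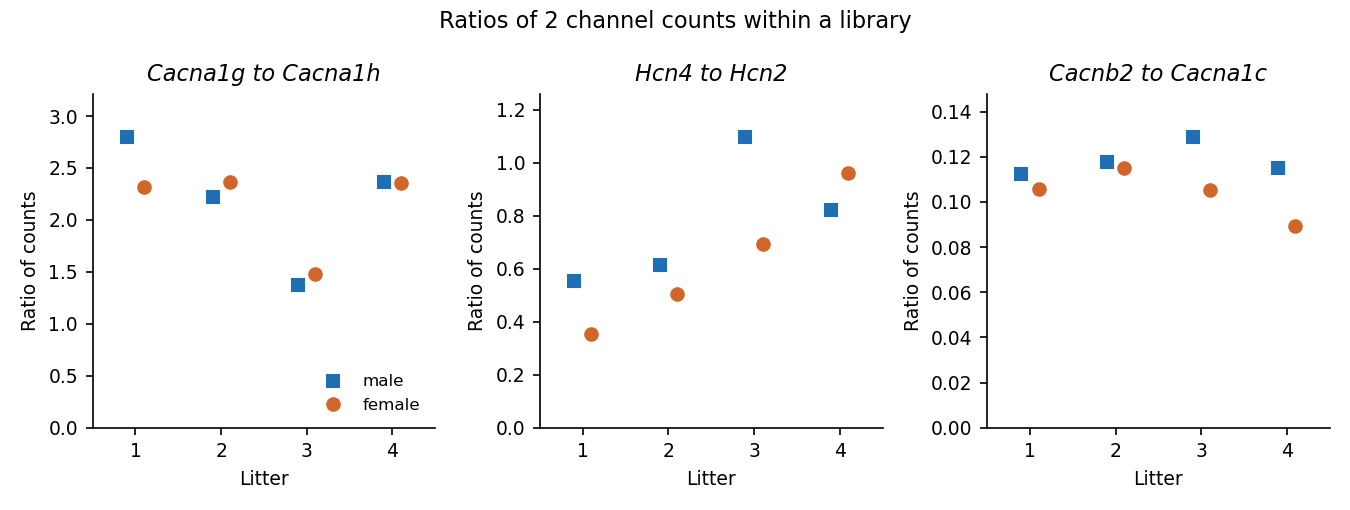
Ratio of counts of 2 channel genes within each library, by litter, with males as squares and females as circles; each axis starts at 0. The Cacna1g to Cacna1h ratio was 1.37 and 1.48 in litter 3 and at least 2.22 elsewhere, and the Cacnb2 to Cacna1c ratio was higher in the male of each litter.

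Of 7 tested HCN genes and partners, 2 differed between litters, near the 32.1% of all tested genes that did. In litter 3, the membrane scaffold gene Cav3 was lower (log2 -0.30, edgeR adjusted p = 0.00247), and in litter 4 it was higher by 0.49 (edgeR adjusted p = 0.00118). Of the genes for cyclic AMP-binding membrane proteins, Popdc3 was higher in litter 3 by 0.31 (log2, edgeR adjusted p = 0.00832). Popdc2 (-0.22) and Bves (-0.19) were lower in litter 3 on the log2 scale (edgeR adjusted p = 0.0186 and 0.0298) but did not pass the test over all litters (edgeR adjusted p = 0.0509 and 0.0981). Conduction and pacemaker regulators had 9 of 12 tested genes that differed between litters, beside 32.1% of all tested genes. In litter 3, where 13.6% of all genes were higher and 14.8% lower, 6 of the 12 were higher, including the transcription factor genes Tbx18 (0.83), Tbx2 (0.87) and Nkx2-5 (0.32, all log2, edgeR adjusted p of at most 0.00380), and 1 was lower, Smoc2 (-1.78, SE 0.30, edgeR adjusted p = 0.00113), which codes for a matrix protein. In litter 1, where 13.3% of all genes were called, 6 of the 12 were lower (among them Tbx2 at -1.01, Gja5 at -0.95 and Id2 at -0.69 on the log2 scale) and 1 higher, Smoc2.

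By sex, none of the 6 tested genes passed edgeR's test with or without litter as a replicate block, nor DESeq2's Wald test. A further 49 tested genes were on the lists of channel subunits, their partners and regulators, and conduction and pacemaker regulators. Of these 49, edgeR called 0 in both fits, with an unadjusted p under 0.05 for 5 without the block and 12 with it (2.22% and 11.6% of all tested genes). Conduction and pacemaker regulators made up 2 of the 5 and 4 of the 12. Of all tested genes, edgeR called 0.0436% by sex without the block and 0.211% (29 against 6 genes) with it. With the block, 1 of the 6, Cacna1c, had an unadjusted p under 0.05, and without it 0 did. The log2 differences of the 6 ran from -0.21 for Hcn2 to 0.10 for Hcn4 (for Hcn2, -0.44 without the female of litter 3 and -0.019 without the male), and their median size of 0.08 stands beside 0.09 over all tested genes. The summed atrial markers overlapped between the sexes (431 to 1390 CPM in males, 248 to 1683 CPM in females), a sum set mostly by Nppa. Over the 10 atrial markers the median log2 difference was 0.88, higher in males, and edgeR called 0 of them, with 4 at an unadjusted p under 0.05 without the block and 6 with it. With the block, 5 of 8 fibroblast and 1 of 8 endothelial markers passed the sex test, and the part of these markers in the channel genes' sex differences was not tested.

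By litter, 3 of the 6 genes (Hcn2, Cacna1g and Cacna1h) passed the test, against 32.1% of all tested genes, with a median log2 range of 0.49 against 0.37. In litter 3, 2 of 6 were lower and 1 higher, where 14.8% of all genes were lower and 13.6% higher (28.3% in all). Of all genes, 13.3% were called in litter 1, 4.18% in litter 2 and 10.5% in litter 4, with 2, 1 and 0 of the 6 genes among them. At an unadjusted p under 0.05, the counts of the 6 in litters 1 to 4 were 2, 2, 4 and 2, beside 28.4%, 17.9%, 39.9% and 27.6% of all tested genes. Both libraries of litter 3 lay outside the range of the other 6 for 2 of the 6 genes, Hcn2 and Cacna1g, and for 31.6% of all genes. With 6 genes, these counts are too few to set apart from the background, and calls near the threshold, such as those of Cacna1g and Cacna1h, are the less certain because the litter test made too many false calls on counts simulated with gene-specific dispersions. The other genes listed were channel subunits, their partners and regulators, and conduction and pacemaker regulators. Of these, 26 of 49 tested (53.1%) differed between litters, with a median log2 range of 0.54, and in litter 3, 11 were higher and 12 lower. Without both libraries of litter 3, 12 of these listed genes differed between the other litters, in a fit that called 1898 genes in all against 4427. All lists were chosen with earlier results of these data known. Their shares therefore cannot show that such genes differ between litters more often than other genes.

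**Figure D4:**
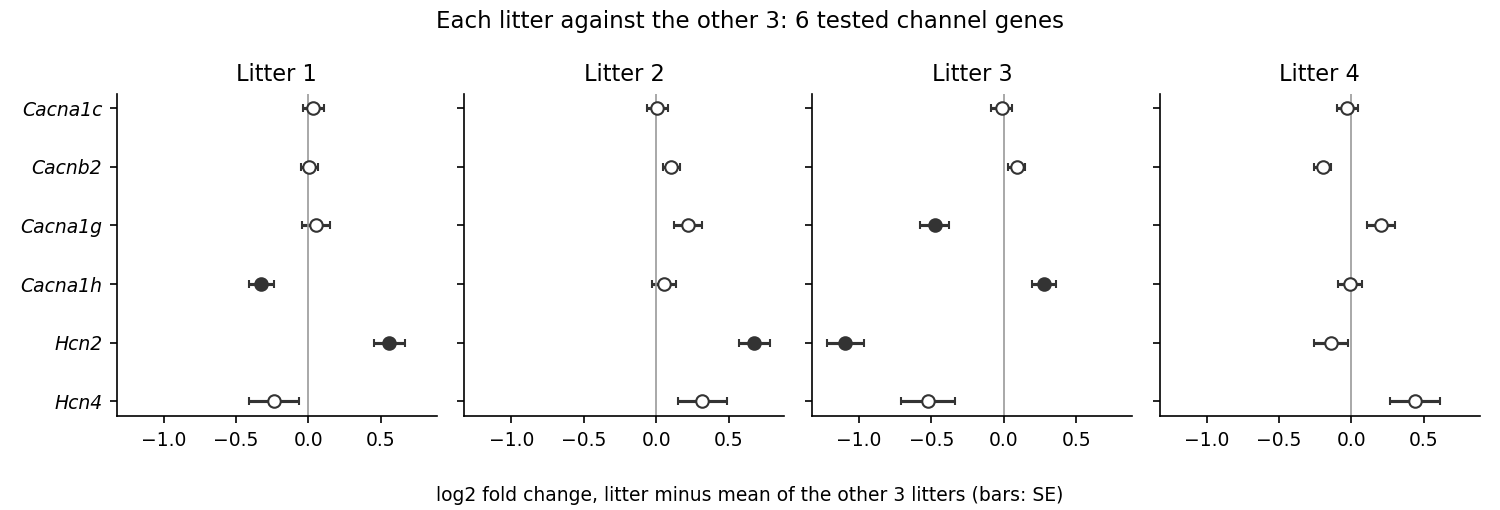
Log2 fold change of each litter against the mean of the other 3 for the 6 tested genes, with bars for the SE; filled circles passed an adjusted p of 0.05 in edgeR's quasi-likelihood test. Hcn2 lies at -1.09 in litter 3, Cacna1g at -0.48, and Cacna1c between -0.03 and 0.03 in the 4 panels.

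Summed markers of cell types also moved with litter 3. Atrial markers summed to between 1390 and 1683 CPM there and 248 to 910 CPM in the other 6 libraries, mostly from Nppa, a natriuretic peptide gene that is also high in the fetal ventricle. Ventricular markers summed to 16280 to 16905 CPM against 19162 to 22736, and cardiomyocyte markers to 54604 to 55085 CPM against 57474 to 68195. These sums follow their most abundant genes: of the 6 ventricular markers, Myl2, Myl3 and Fhl2 were lower in litter 3 and Irx4 and Hey2 higher, and of the 8 cardiomyocyte markers 3 were lower (Myh6, Actn2 and Mybpc3) and 0 higher. Fibroblast markers had 32.4 to 51.8 CPM against 108 to 243, mural markers 908 to 930 CPM against 1347 to 1532, and endothelial markers 18.0 to 19.6 CPM against 16.0 to 148. The mural sum was mostly Acta2 and Abcc9, with means of 751 and 460 CPM over the 8 libraries. Acta2 was lower in litter 3 (log2 -1.31, edgeR adjusted p = 9.63e-07), and Abcc9 was not called there (log2 0.08, edgeR adjusted p = 0.290). Called lower in litter 3 were 6 of 8 fibroblast, 4 of 8 mural and 5 of 8 endothelial markers, with 0 higher, while of 10 atrial markers 4 were higher and 1 lower. Of all tested genes, 14.8% were lower and 13.6% higher in litter 3. All genes of these 6 lists had counts in every library. Macrophage markers had 0.738 to 0.963 CPM against 0.540 to 1.08, with 2 of 4 at 0 in some libraries, and erythroid markers 161 to 463 CPM against 85.9 to 213. Schwann and neural markers stood at 13.4 to 13.9 CPM against 10.3 to 14.2, with 1 of the 8 at 0 in every library and 6 more at 0 in some. Of the maturation genes listed, 10 of 11 differed between litters, beside 32.1% of all tested genes. In litter 3, 3 were higher and 4 lower, beside 13.6% and 14.8% of all tested genes, with a median log2 difference of 0.02. Myh7, the slow myosin of the fetal heart, was the highest at 2.74 (log2, SE 0.08, edgeR adjusted p = 5.13e-09). The part of these shifts in the levels of Hcn2, Cacna1g and Cacna1h was not tested.

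The genes nearest to each of the 3 in profile were sought among 8566 genes with a mean of at least 10 CPM, as the root mean square difference between log2 profiles over the 8 libraries. For Hcn2 they were Syt7 (0.15), a calcium sensor of membrane fusion, and Phyhip (0.18), beside a spread of 0.54 (SD) in Hcn2 itself. Syt7 had litter means of 60.4, 54.8, 26.2 and 40.5 CPM and Phyhip 20.6, 20.4, 10.2 and 16.6 CPM in litters 1 to 4. Cacna1g (SD 0.24) was nearest to Chd3 and Dolpp1 (0.08 each), and Cacna1h (SD 0.19) to Sidt2 (0.05) and Msto1 (0.06). This is a description over 8 libraries that share the litters.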

How the data were processed

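RNA was sequenced from 8 libraries of purified cardiomyocytes, 1 male and 1 female heart from each of 4 litters on postnatal day 2. The authors deposited raw read counts per gene symbol in 1 table with 8 sample columns. STAR 2.7.3a and mm10 are named in the submitters' processing notes. The counting program, the annotation and the use of strand are not given in the sources used here. Per the labels' protocols the kit was a stranded one for total RNA, while the labels call the molecule polyA RNA, so transcripts without a tail may or may not be covered.

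Counts were analysed in R 4.3.3 with edgeR 4.0.16 and DESeq2 1.42.0, and in Python 3.11.15. Genes were kept by filterByExpr on sex (13771 kept) and scaled by TMM. Sexes were compared, male minus female, by edgeR's quasi-likelihood test without a litter term (6 residual degrees of freedom). Litter was tested as 3 coefficients together in a model with sex (3 residual degrees of freedom), and each litter against the mean of the other 3 in the same fit. P-values were adjusted over all tested genes after Benjamini and Hochberg, and 0.05 was the threshold. SEs were taken as the absolute log2 fold change over the root of the F statistic. Ratios of 2 genes used the counts of 1 library and an exact permutation test. Library totals of 14226342 to 24910243 counts set the precision, and Poisson intervals cover counting error only. The hearts are separate animals, but p-values across litters rest on 2 libraries a litter.

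On simulated counts with dispersions that follow their trend, false calls stayed near the threshold. With dispersions drawn gene by gene, the litter test made well over the false calls its threshold allows, the sex test fewer but still too many, and a few calls were made where no gene was changed, so a robust edgeR fit was added after seeing the data. Other alternatives were DESeq2's size factors and tests, library totals as scaling, filters on low counts, mitochondrial genes left out, each library or litter 3 left out, litter as a block, no sex term, and all exons as length.

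The labels give the litter of each sample, which pairs the sexes. With sex means removed, the correlation across genes between littermates was 0.506, 0.503, 0.696 and 0.367, against -0.482 to 0.270 between litters. Between libraries of 1 sex, chi-square over its degrees of freedom was 10.4 to 49.1, so none was a repeat of another.

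The 7 genes and all gene lists were chosen with earlier results of these data known. All 7 are named, other listed genes where they passed a test, and for each of the 7 past the litter threshold the 2 genes with the nearest log2 CPM profile (prior count 2). Gene models and transcripts are GENCODE M21 on GRCm38 (mm10), and promoters are RefSeq's on GRCm38.p6. Scn2a stands as Scn2a1 in the table.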

Additional observations from a re-analysis of the deposited data

Results flagged for a closer look

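Among 20 groups of 4 libraries (the level of each of the 7 genes and the log2 of each of the 3 ratios, in males and in females), 2 held a library far from the other 3, and chance gives about 1 in 20. Scn4b had 0.911 CPM in the male of litter 3 against 0.201 to 0.291 CPM in the other males, from 21 counts against at most 7. The log2 ratio of Cacna1g to Cacna1h was 0.57 in the female of litter 3 against 1.21 to 1.24 in the other females, and the male of that litter had the lowest ratio of the males. The part of library quality in either was not tested.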

How the results depend on the processing

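Litter rests on 2 libraries each, and Scn4b, with at most 21 counts, is limited by depth. No scaling moved the median log2 difference of all genes by more than 0.1, but with library totals alone 58.8% of calls in litter 3 were higher against 47.9%, and 14.9% against 44.8% in litter 4. The 6 tested genes had 1 call in litter 4 with DESeq2's size factors, library totals, a mean of at least 50 counts, the robust fit or without litter 3, and 2 without a filter, against 0. Litter 2 had 1249 calls without a filter, 345 with a mean of at least 50 counts and 271 without litter 3, against 575, and the 6 genes 2 calls there without a filter and 0 without litter 3. Without litter 3, the litter test called 1898 genes against 4427, 1 of the 6 against 3, and litter 1 had 977 calls against 1827, with 0 of the 6.

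With litter as a replicate block, 29 genes were called by sex against 6, and none of the 6 genes in either. In the paired test of ratios (sign flips), no ratio passed, and 0.125 is the smallest p that 4 pairs allow.

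Leaving out 1 library at a time gave 359 to 1869 calls in litter 1, 153 to 752 in litter 2, 1704 to 3791 in litter 3 and 322 to 1302 in litter 4, and of the 6 genes 0 to 2, 0 to 1, 2 to 4 and 0 to 1. The log2 difference by sex, which passed in no case, ran from -0.088 to 0.32 for Hcn4 (-0.037 without litter 3), -0.17 to 0.060 for Cacna1g and -0.16 to 0.0093 for Cacna1h. That of Hcn2 ran from -0.44 to -0.019. The ratio of Cacna1g to Cacna1h ran from -0.15 to 0.23, that of Hcn4 to Hcn2 from 0.097 to 0.58 and that of Cacnb2 to Cacna1c from 0.12 to 0.25, where leaving out the female of litter 2 gave an unadjusted exact permutation p of 0.0286. The causes of these changes were not tested. Over all alternatives, 507 values kept their call or stayed close to the reported value, 37 moved further, 18 newly passed, 19 no longer passed and 9 changed sign.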
